A study of Mus musculus with 8 samples.

Results

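The glycolysis and hypoxia response genes examined here were 10 symbols of the count table, Slc2a1, Hk2, Pfkp, Ldha, Pgk1, Aldoa, Eno1, Pkm, Car9 and Bnip3, taken by gene name. They occupied 11 of its 54532 rows, since Aldoa has 2 rows, and 11 of 11 rows passed the filter on low counts that left 17138 rows for testing. Transcripts were counted in the whole lungs of 8 CC-LR mice, a K-ras mutant model of lung adenocarcinoma, killed at 14 weeks of age: 4 controls and 4 that received TTI-101, an inhibitor of canonical STAT3 signaling, for 4 weeks from 10 weeks of age. All 8 mice carried CCSP-Cre and LSL-K-rasG12D on a C57BL/6 background. Cre is under control of the club cell secretory protein locus, and by the study's account lung epithelium then expresses mutant K-ras. Which cells of these whole lungs had done so is not given. The study used mice of both sexes, and neither the sex of the mice behind these libraries nor the route by which they received TTI-101 is given in the sources used here.

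Glycolysis splits glucose into pyruvate. Glucose enters through a transporter, is trapped by hexokinase, passes phosphofructokinase, aldolase, phosphoglycerate kinase, enolase and pyruvate kinase, and lactate dehydrogenase then turns pyruvate into lactate when the flux is high or oxygen is short. Many of these genes are known targets of the hypoxia-inducible factors, which are degraded in oxygen after prolyl hydroxylation and which bind a short core sequence in target genes when they persist. K-ras mutant tumors and STAT3 signaling have both been linked to higher glycolysis in other systems.

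The hypoxia response core was sought in the promoters of these genes. They were chosen as glycolysis and hypoxia response genes, so a high share of matches is not independent of that choice. The letters ACGTG or GCGTG, on either strand, were searched in the 250 bases before each RefSeq start (GRCm38.p6), where CACGTG counts once on each strand. They were present in 14 of 16 windows and in a window of 10 of 10 genes, beside 38.6% of 32817 windows and 41.5% of 26994 genes in the whole table, and 50.1% of the 16831 windows whose G and C content lay in the range of these genes' windows. In the GENCODE M21 annotation 6 of the 16 windows held no base of an exon, and 6 of those 6 had a match. Some windows of Aldoa and of Eno1 overlap each other, so the 16 are not all separate. A gene with several windows also has more chances of a match. A window of Ldha, the gene with the lowest p among the 11 rows, and the windows of Hk2 and Pgk1 are shown. Hk2 is from the first step and Pgk1 from a later step of the pathway. Sequences run 5′ to 3′ on the gene's strand, with matches in capitals. They lie at chr7:46845554-46845803 (plus strand), chr6:82774455-82774704 (minus strand) and chrX:106186850-106187099 (plus strand). The Ldha window, which has 5 matches, lies inside the longer gene model of the count table, and the other 2 windows, with 2 matches each, lie just before theirs. A match is a run of letters and does not show that a factor binds.
Ldha: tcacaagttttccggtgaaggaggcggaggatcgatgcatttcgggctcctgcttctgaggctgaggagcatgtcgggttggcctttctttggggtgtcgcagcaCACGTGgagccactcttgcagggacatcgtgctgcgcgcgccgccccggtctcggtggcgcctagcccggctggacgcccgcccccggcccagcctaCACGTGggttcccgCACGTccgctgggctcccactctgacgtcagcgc
Hk2: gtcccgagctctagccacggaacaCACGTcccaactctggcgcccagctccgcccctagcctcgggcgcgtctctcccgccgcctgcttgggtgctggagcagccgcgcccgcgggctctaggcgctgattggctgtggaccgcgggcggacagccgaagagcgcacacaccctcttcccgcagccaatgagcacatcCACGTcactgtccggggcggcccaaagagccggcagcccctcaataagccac
Pgk1: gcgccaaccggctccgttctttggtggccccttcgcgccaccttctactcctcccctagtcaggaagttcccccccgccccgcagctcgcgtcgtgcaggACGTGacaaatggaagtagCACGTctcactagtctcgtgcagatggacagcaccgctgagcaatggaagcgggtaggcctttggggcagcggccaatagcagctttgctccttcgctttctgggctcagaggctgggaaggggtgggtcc

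The libraries held 16075855 to 26873509 counts. Control mouse 4 stood apart from the others: its score on the first principal component, which held 45.2% of the variance, was 101.1, against -39.4 to 17.9 in the other 7, and mitochondrial genes took 5.56% of its counts, against 2.01% to 2.85%. This mouse had the highest value of all 8 in 5 of the 11 rows (Slc2a1, Hk2, Ldha, Pgk1 and the second Aldoa row) and the lowest for Pfkp. Values without it are therefore given beside calls that it ended or moved by over 1.5 times, except for cell type and proliferation markers. Epithelial and other markers checked the tissue: summed alveolar type 2 cell markers were at 41542 to 73926 CPM (counts scaled to library size and TMM factor) in control and 32479 to 58997 CPM in TTI-101-treated lungs. In whole lung, fewer cells of a type and less RNA per cell cannot be told apart.

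None of the 11 rows passed an adjusted p of 0.05 in edgeR's quasi-likelihood test, where 0.00% of all genes tested did and the smallest adjusted p among these rows was 0.657. At an unadjusted p of 0.05 edgeR, DESeq2 and limma-voom each had 1 row, Ldha, which was lower in TTI-101-treated lungs, where 3.58% of all genes were past that p in the lower, 3.02% in the higher and 6.61% in either direction. Groups did not separate in any of the 11 rows, against 2.96% of all genes. The log2 fold change was under 0 in 8 rows and over 0 in 3, beside 49.4% of all genes under 0, and its median was -0.18 beside 0.00 over all genes. Without control mouse 4 the median of the 11 rows was -0.06.

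**Figure D1:**
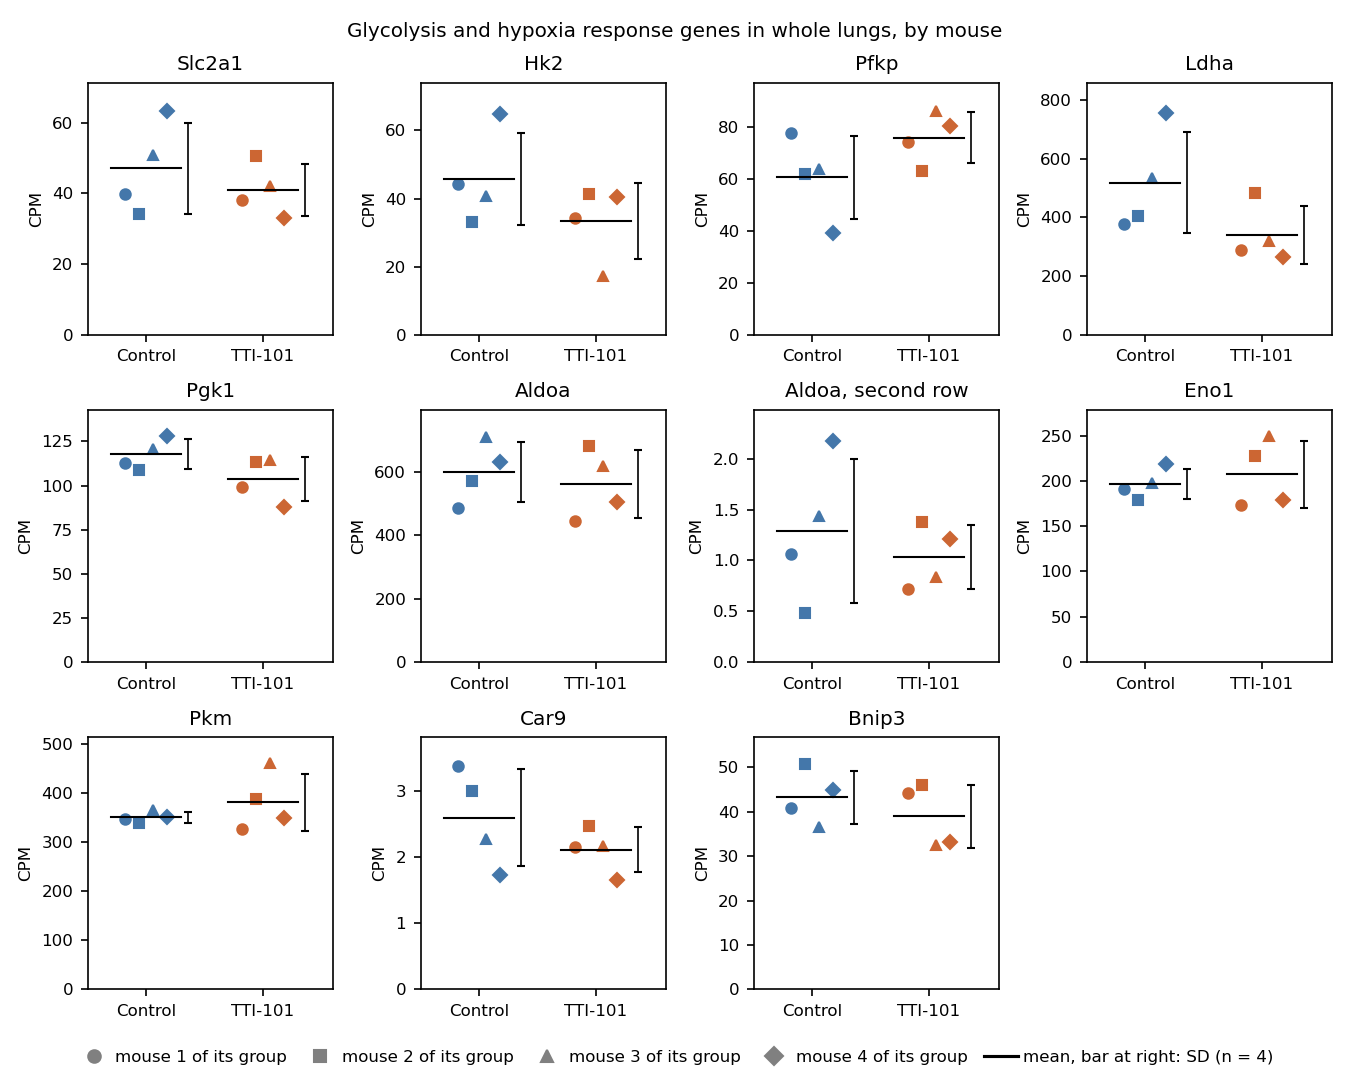
Level of each of the 11 rows in each mouse, in CPM on axes that start at 0; symbols mark the mouse number within its group, lines the group mean and bars the SD (n = 4). The groups overlap in every panel, and control mouse 4 (blue diamond) is the highest of the 8 for Slc2a1, Hk2, Ldha, Pgk1 and the second Aldoa row.

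Glucose entry and its trapping came first. Slc2a1, which encodes the glucose transporter GLUT1, was at 39.9, 34.1, 50.9 and 63.4 CPM in control mice 1 to 4 and at 38.2, 50.6, 42.1 and 33.1 CPM in TTI-101-treated mice 1 to 4. Control mouse 4 was highest and TTI-101-treated mouse 4 lowest, with the rest between. The log2 fold change was -0.20 ± 0.21 (SE; edgeR adjusted p = 0.781) and -0.01 without control mouse 4. Hk2, the hexokinase known to be induced in tumors, was at 44.2, 33.2, 40.9 and 65.0 CPM in controls and 34.3, 41.3, 17.3 and 40.5 CPM after TTI-101. Its spread came from a high control mouse 4 and a low TTI-101-treated mouse 3, and the other 6 mice lay close together. Its log2 fold change was -0.46 ± 0.28 (edgeR adjusted p = 0.663), and -0.23 without control mouse 4.

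Pfkp, the platelet-type phosphofructokinase of the committed step, had the highest log2 fold change of the 11 rows. It was at 77.8, 61.8, 63.8 and 39.3 CPM in controls and 74.4, 63.0, 86.1 and 80.5 CPM after TTI-101. All 4 treated mice lay above the control mean of 60.7 CPM, and the groups still overlapped, because control mouse 1 was above 2 of them. The log2 fold change was 0.32 ± 0.20 (edgeR adjusted p = 0.661), with a 95% interval of the fold from 0.921 to 1.70, and was 0.18 without control mouse 4 and 0.47 without control mouse 1.

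The middle of the pathway differed little between the groups. Aldoa, the main aldolase, was at 485, 573, 710.5 and 633 CPM in controls and 443, 682, 618 and 506 CPM after TTI-101, a log2 fold change of -0.09 ± 0.19 (edgeR adjusted p = 0.891). The treated mice took the lowest and the second highest place. The second Aldoa row, an annotated gene on the same minus strand whose near end lies 38 bases upstream of the first, held only 8 to 34 counts per library and had a log2 fold change of -0.32 ± 0.47, or 0.051 without control mouse 4.
Pgk1, the phosphoglycerate kinase that yields the first ATP of the pathway, was at 113, 109, 121 and 128 CPM in controls and 99.3, 113, 114 and 87.8 CPM after TTI-101. Its log2 fold change was -0.18 ± 0.13 (edgeR adjusted p = 0.692), and the 95% interval of the fold ran from 0.719 to 1.08. Eno1, the ubiquitous enolase, was at 191, 178, 197 and 219 CPM in controls and 173, 227, 249 and 179 CPM after TTI-101. Treated mice held both its highest and its lowest value, for a log2 fold change of 0.08 ± 0.16 (edgeR adjusted p = 0.895).

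The last steps are those of Pkm and Ldha, and the difference between these genes was not tested. Pkm, the pyruvate kinase of most tissues other than liver and red cells, was the steadiest gene in controls, at 347, 339.5, 366 and 352 CPM, and was at 328, 388, 461 and 350.3 CPM after TTI-101. TTI-101-treated mouse 3 was well above the rest and mouse 1 below them, and the log2 fold change was 0.12 ± 0.15 (edgeR adjusted p = 0.815). Ldha, the subunit of lactate dehydrogenase that favors lactate, was at 377, 406, 533 and 756 CPM in controls and 289, 483, 319 and 266 CPM after TTI-101. All 4 treated mice were below the control mean of 518 CPM, and TTI-101-treated mouse 2 alone lay above a control mouse. The log2 fold change of Ldha was -0.61 ± 0.26, a fold of 0.655 with a 95% interval of 0.437 to 0.983 (edgeR, unadjusted p = 0.0427, adjusted p = 0.657; exact permutation p = 0.114 over 70 assignments, where the smallest possible is 0.0286). Without control mouse 4 it was -0.36 with an unadjusted p of 0.136 in edgeR. Ldhb, the other main subunit, had a log2 fold change of -0.51 ± 0.23 (edgeR adjusted p = 0.657), was likewise highest in control mouse 4 and was at -0.33 without it. Summed per length and library size (RPKM), Ldha and Ldhb came to 335 ± 99.95 in controls and 228 ± 55.1 after TTI-101 (SD, n = 4; exact permutation p = 0.143).

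Outside glycolysis stood 2 hypoxia response genes. Car9, the membrane carbonic anhydrase that is a marker of hypoxic tumors, was near the floor of detection, at 27 to 92 counts per library. It was at 3.38, 2.99, 2.27 and 1.73 CPM in controls and 2.15, 2.46, 2.17 and 1.64 CPM after TTI-101, with a log2 fold change of -0.30 ± 0.31 (edgeR adjusted p = 0.769). Here control mouse 4 was the lowest control. The antisense gene Gm12454, which overlaps Car9, held 22 to 62 counts, so part of either row could come from the other if strand was not used in counting, a setting not given in the sources used here. Bnip3, a mitophagy receptor of the outer mitochondrial membrane, was at 40.8, 50.8, 36.7 and 44.8 CPM in controls and 44.3, 45.9, 32.6 and 33.1 CPM after TTI-101, a log2 fold change of -0.15 ± 0.17 (edgeR adjusted p = 0.792).

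Per length, control lungs were led by Aldoa at 206 RPKM and Ldha at 156 RPKM, followed by Pkm at 70.2, Pgk1 at 52.4, Eno1 at 36.5, Bnip3 at 19.1, Slc2a1 at 13.4, Hk2 at 7.68, Pfkp at 4.53 and Car9 at 1.12 RPKM. Ranges over the 4 control mice overlapped between Aldoa and Ldha, between Bnip3 and Slc2a1, between Slc2a1 and Hk2 and between Hk2 and Pfkp, and neighbours were otherwise separate. The order after TTI-101 was the same except for Pfkp (5.67 RPKM) and Hk2 (5.59 RPKM), which overlapped. Ldha was then at 103 RPKM and overlapped Pkm at 76.3 RPKM. The exon union of Pfkp, 13401 bases, is the longest of the 11 rows, which lowers its RPKM. The order by CPM differs: Eno1, of 5379 bases, was at 196 CPM in controls, above Pgk1, of 2244 bases, at 118 CPM.

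The isozymes of each step were compared next. In the phosphofructokinases Pfkm, the muscle type, had a log2 fold change of 0.45 ± 0.23 and Pfkl, the liver type, of 0.02 ± 0.19. In the hexokinases Hkdc1 had -0.53 ± 0.25 and Hk1, the constant form, 0.13 ± 0.11. Eno3, the muscle enolase, had 0.53 ± 0.29. The edgeR adjusted p of these 5 genes was 0.657 or above. The other relatives tested lay between -0.31 for Aldoc and 0.71 for Car12 apart from Ldhb, Slc2a4 and Car14, with 0.41 for Hk3, 0.33 for Pklr, 0.29 for Car4, -0.02 for Eno2, -0.10 for Bnip3l and -0.11 for Eno1b on the log2 scale. Car12 and Pklr were near the floor of detection, at 0 to 36 and 6 to 44 counts per library, with SEs of 0.78 and 0.67. Without control mouse 4 Car12 was at 0.34, Hk3 at 0.17, Car4 at 0.072, Aldoc at -0.14, Pklr at 0.72 and Eno1b at 0.23. The muscle isozymes were both lowest in control mouse 4, and without it Pfkm was at 0.27 and Eno3 at 0.33. The summed cardiomyocyte markers of this mouse were 106 CPM against 436 to 929 CPM in the other controls and 659 to 1670 CPM after TTI-101, and the part of heart muscle in these values was not tested.

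**Figure D2:**
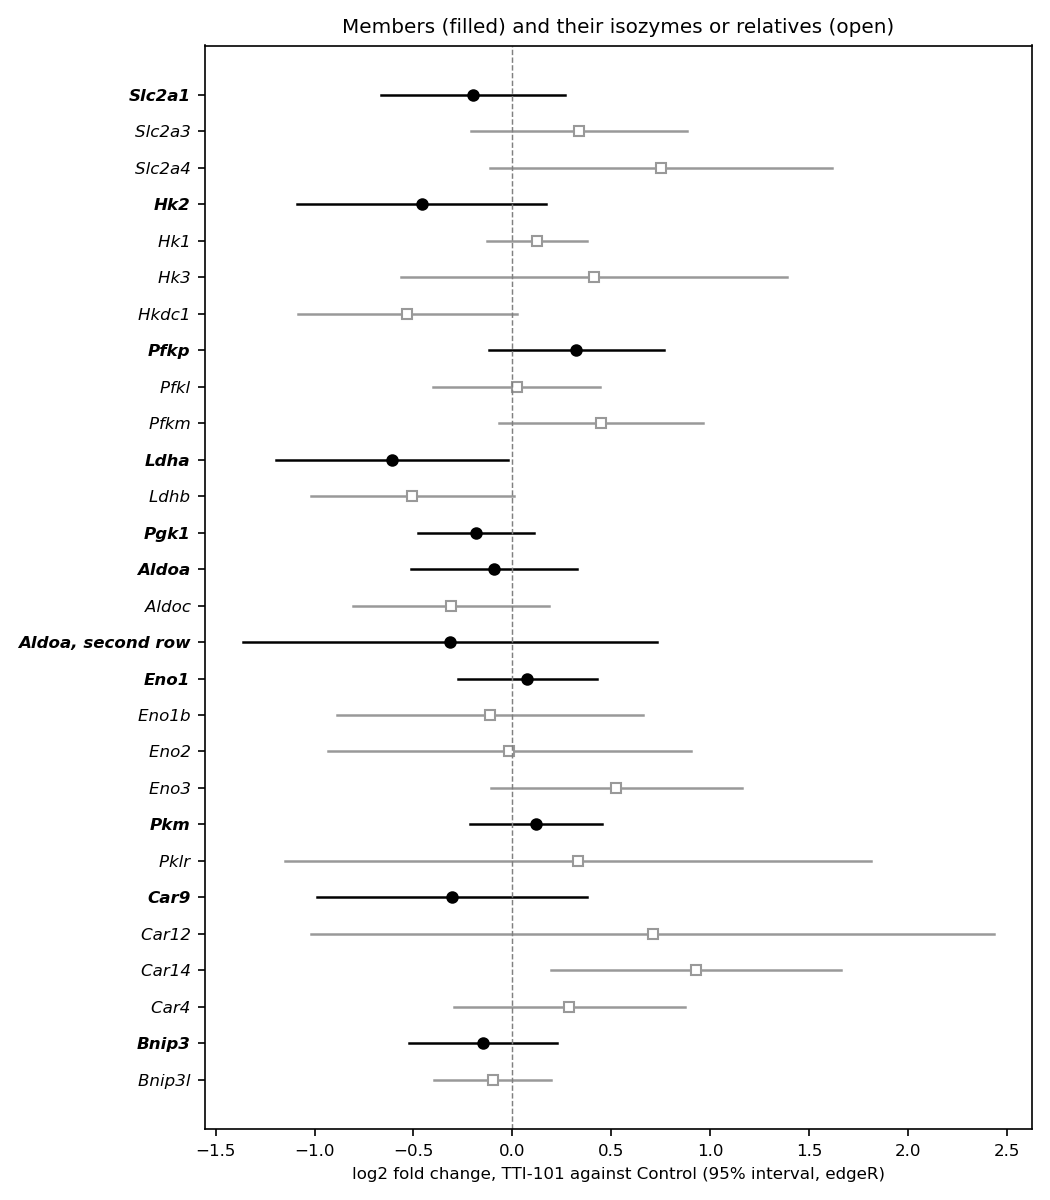
The log2 fold change of TTI-101 against control with its 95% interval (edgeR) for the 11 rows (filled circles) and their isozymes or relatives (open squares); the dashed line is 0. Of the 11 rows only the interval of Ldha, -0.61 at its centre, lies clear of 0, and of the relatives only that of Car14, at 0.93.

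The share of each gene in the summed RPKM of its isozymes was compared in 8 families. Slc2a1 made up 66.9%, 65.7%, 75.8% and 84.5% of Slc2a1, Slc2a3 and Slc2a4 in control mice 1 to 4, and 64.2%, 63.9%, 63.2% and 60.4% in treated mice. Every treated mouse was below every control, with means of 73.2% ± 8.79 and 62.9% ± 1.75 (SD, n = 4), and the exact two-sided permutation p was 0.0286, the smallest that 4 against 4 allows, and 0.229 after Benjamini-Hochberg adjustment over the 8 families. The difference was -6.55 percentage points without control mouse 4, against -10.3 with it. Counts not divided by length gave -10.9 points (exact permutation p = 0.0857). The partners Slc2a3 and Slc2a4, the neuronal and the insulin-responsive transporter, had log2 fold changes of 0.34 ± 0.25 and 0.75 ± 0.39. The share of Ldha in Ldha, Ldhb and Ldhc was 46.5% ± 3.33 in controls and 44.7% ± 3.30 after TTI-101 (exact permutation p = 0.429), and the exact permutation p of the other 6 families was between 0.314 and 0.886. The size of a share depends on gene length, 3310 bases for Ldha and 1570 for Ldhb. Not divided by length, Ldha was above Ldhb, at means of 518 and 281 CPM in controls and 339 and 198 CPM after TTI-101.

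**Figure D3:**
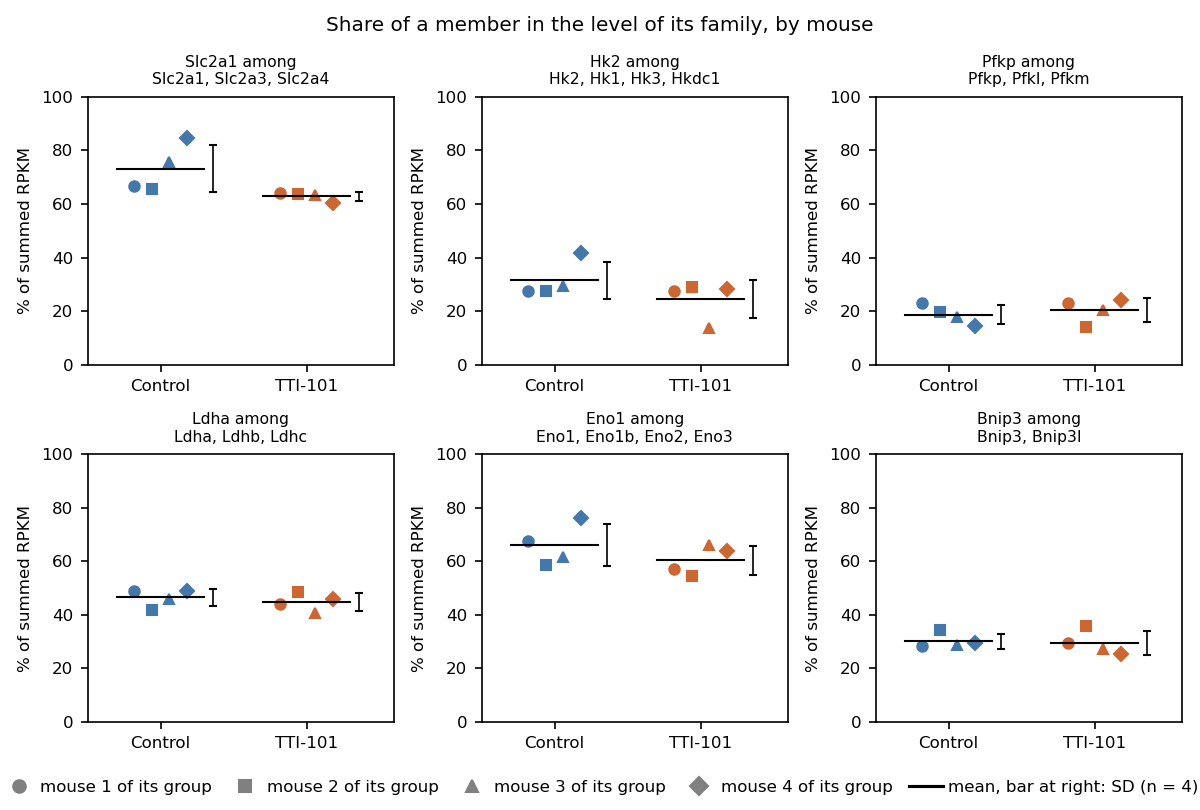
Share of a gene in the summed RPKM of its isozyme family, in percent, by mouse for 6 of the 8 families; lines are group means and bars the SD (n = 4). The 4 treated mice lie between 60.4% and 64.2% for Slc2a1, below the control mice at 65.7% to 84.5%, and the groups overlap in the other 5 panels.

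Other genes of the pathways were counted in 8 lists, and none of their genes passed an adjusted p of 0.05 in edgeR (smallest adjusted p 0.657). Of 28 tested glycolytic enzymes 1, Ldha, was lower at an unadjusted p of 0.05 and 0 were higher, with a median log2 fold change of 0.00, as over all genes. Of 9 glucose transporters 1, Slc5a1, a sodium-coupled transporter, was lower (-0.75 ± 0.31) and 0 higher, with a median of 0.31. Slc5a1 was at 12.9 CPM in control mouse 4 and at 5.60 to 7.34 CPM in the other controls, and without this mouse it was at -0.44 (edgeR, unadjusted p = 0.120) and the list median was 0.17. Its unadjusted p also missed 0.05 without treated mouse 1, 3 or 4. Of 21 genes that switch glycolysis or export lactate 1 was higher and 2 were lower, with a median of -0.04.

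Monocarboxylate transporters carry lactate across the membrane. Slc16a1, which encodes the monocarboxylate transporter MCT1, was at 55.6, 51.5, 52.8 and 89.5 CPM in controls and 46.6, 43.0, 45.8 and 37.3 CPM after TTI-101. Every treated mouse was below every control, as in 1.43% of all genes. Its log2 fold change was -0.53 ± 0.19 (edgeR, unadjusted p = 0.0199, adjusted p = 0.657), and -0.29 without control mouse 4. Slc16a7 (MCT2) had -0.59 ± 0.23, and -0.34 without control mouse 4 (edgeR, unadjusted p = 0.104). Pdk4, a kinase that holds pyruvate out of the citric acid cycle, had 0.60 ± 0.25 (0.53 without control mouse 4 and 0.37 without treated mouse 2, both short of an unadjusted p of 0.05 in edgeR). Pdp1, a phosphatase of the opposite effect, had 0.31 ± 0.14 (edgeR, unadjusted p = 0.0511). For Pdp1 every treated mouse was above every control, as in 1.53% of all genes.

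Of 14 genes of gluconeogenesis and the pentose phosphate pathway 1, Pck1, was higher at an unadjusted p of 0.05, with a median over the list of -0.04. Pck1, the entry enzyme of gluconeogenesis, which fat also expresses strongly, was at 1.06, 3.89, 0.78 and 0.64 CPM in controls and 9.72, 17.1, 28.9 and 2.49 CPM after TTI-101. TTI-101-treated mouse 4 overlapped the controls and the other 3 were above them. Its log2 fold change was 3.20 ± 0.76 (edgeR, unadjusted p = 0.00166, adjusted p = 0.657). Summed adipocyte markers were at 4.86 to 28.4 CPM in controls and at 18.9 to 65.2 CPM after TTI-101, with 3 of 4 tested markers higher at an unadjusted p of 0.05. The part of fat in the Pck1 value was not tested.

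Among the hypoxia genes, 1 of 15 of the hypoxia-inducible factor machinery was higher and 2 were lower at an unadjusted p of 0.05, with a median of -0.07. These were Egln2, a prolyl hydroxylase (0.34 ± 0.15), Eloc, elongin C of the VHL ligase (-0.31 ± 0.13), and Arnt2, a partner subunit near the floor of detection (-1.08 ± 0.42). Without control mouse 4 these were at 0.32, -0.28 and -0.89 and none was past an unadjusted p of 0.05 in edgeR. Epas1, which encodes HIF-2α, had 0.26 ± 0.26 (edgeR adjusted p = 0.763). Of 37 other hypoxia-induced genes 2 were higher and 3 lower, with a median of 0.01. Adm, which encodes the vasodilator adrenomedullin, was at 7.19, 5.02, 4.22 and 3.13 CPM in controls and 7.73, 10.8, 16.9 and 9.06 CPM after TTI-101. Its groups did not overlap, as in 1.53% of all genes in that direction, with a log2 fold change of 1.18 ± 0.32 (edgeR, unadjusted p = 0.00414, adjusted p = 0.657). Tfrc, the transferrin receptor, was at 96.8, 79.9, 83.2 and 168 CPM in controls and 73.7, 64.8, 49.4 and 74.0 CPM after TTI-101, again without overlap and in the opposite direction, at -0.71 ± 0.25. Without control mouse 4 Tfrc was at -0.39 and Adm at 1.02. The remaining calls were Pdgfb (0.56 ± 0.25), Hmox1 (-0.52 ± 0.21) and Bhlhe40 (-0.56 ± 0.23), of which Bhlhe40 was chosen after its values were seen. Without control mouse 4 Pdgfb was at 0.40, Hmox1 at -0.32 and Bhlhe40 at -0.30, and none was past an unadjusted p of 0.05 in edgeR. Without treated mouse 3 Pdgfb was at 0.33 (edgeR, unadjusted p = 0.177).

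Of 12 carbonic anhydrases 2 were higher at an unadjusted p of 0.05 and 0 lower, with a median of 0.27. They were Car14, a membrane form (0.93 ± 0.33), and Car3, which muscle and fat express strongly (1.80 ± 0.77). The median was 0.14 without control mouse 4. Car14 was at 0.74 without treated mouse 3, and Car3 at 1.54 without control mouse 3 and at 1.63 to 1.71 without treated mouse 1, 2 or 3, each short of an unadjusted p of 0.05 in edgeR. Of 18 mitophagy genes, the group of Bnip3, 0 were past that p in the main edgeR fit in either direction, with a median of 0.02. Its outer values were Pink1, the kinase that marks damaged mitochondria (0.40 ± 0.21), and the receptor Calcoco2 (-1.26 ± 0.61), both short of that p in this fit. Calcoco2 was at 3.45 CPM in control mouse 4 and at 0.55 to 1.61 CPM in the other controls, and its log2 fold change was -0.56 without this mouse. Calcoco2 had an unadjusted p of 0.0446 in DESeq2. In edgeR it had 0.0396 with no filter, 0.0364 without control mouse 1 and 0.0259 without control mouse 3.

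**Figure D4:**
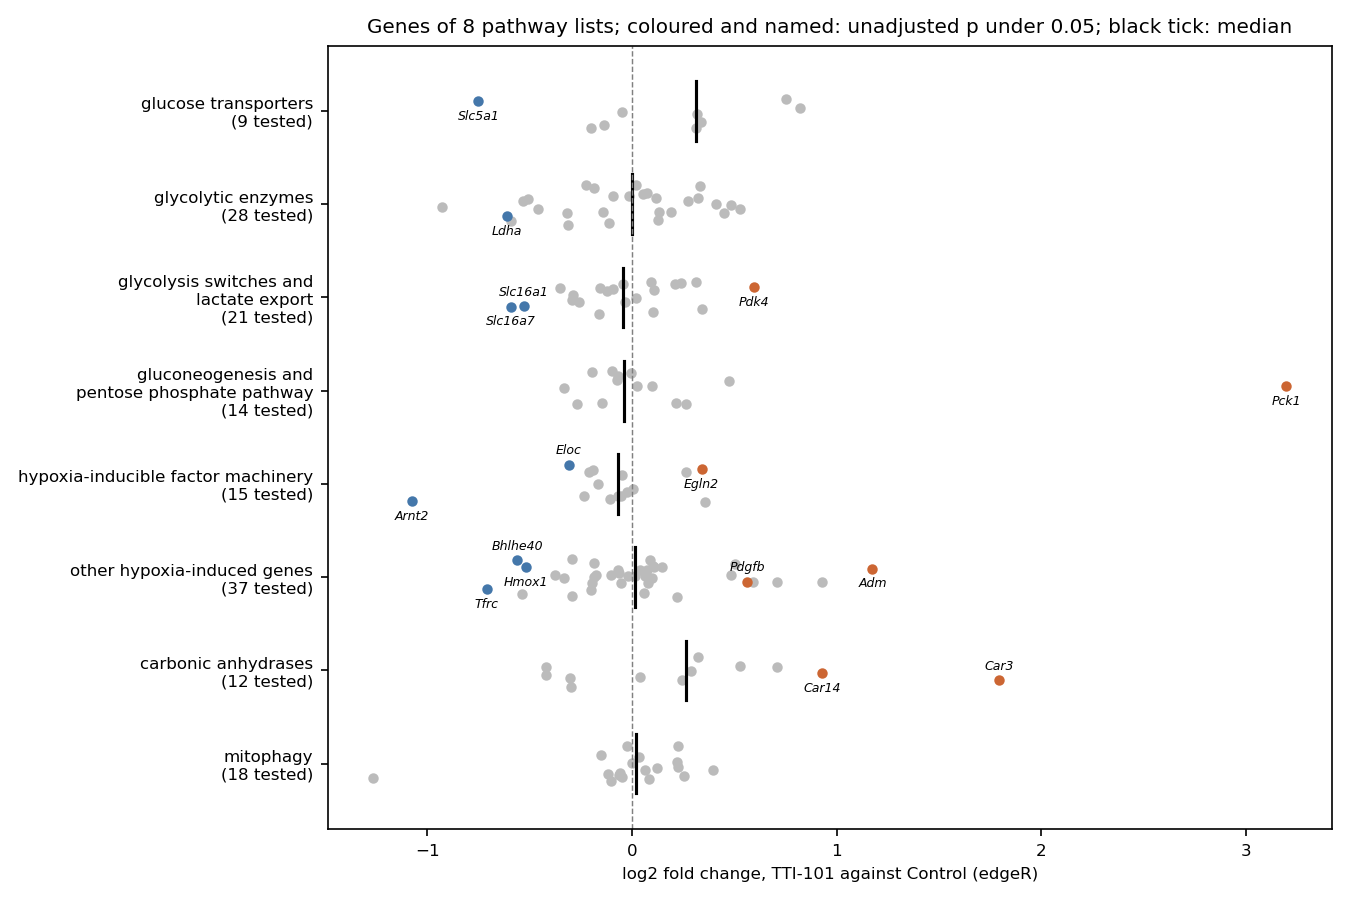
The log2 fold change (edgeR) of each tested gene of 8 pathway lists; colored and named genes have an unadjusted p under 0.05 and black ticks are list medians, which lie between -0.07 and 0.31. Higher and lower genes lie on both sides of 0 in most lists, and the 28 glycolytic enzymes center at 0.00.

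Markers of several cell types differed in level between the groups as well. The 6 proliferation markers were all lower at an unadjusted p of 0.05 in edgeR, beside 3.58% of all genes. Their sums were 139 CPM in control mouse 4, 56.5 to 82.9 CPM in the other controls and 39.3 to 63.9 CPM after TTI-101. Of 5 club cell markers 2, and of 7 ciliated cell markers 2, were lower at that p. The club cell marker Scgb3a1 went the other way, with a log2 fold change of 0.64. Marker fits without control mouse 4 are not given here. Of 8 B and T cell markers 4 were higher at an unadjusted p of 0.05, beside 3.02% of all genes. Their median log2 fold change was 1.02, with sums of 68.1 to 239 CPM in controls and 204 to 423 CPM after TTI-101. The 7 alveolar type 2 markers were lower by fold change, with a median of -0.40, and none was past an unadjusted p of 0.05. Endothelial sums were 1013 to 2809 CPM in controls and 2259 to 4031 CPM after TTI-101, with 1 of 7 markers higher at that p. Red blood cell sums were 59.5 to 265 CPM in controls and 207 to 1594 CPM after TTI-101, with 5 of 6 markers higher. Control mouse 4 had the highest alveolar type 2, club, ciliated and proliferation sums and the lowest endothelial, cardiomyocyte, adipocyte and lymphocyte sums. The part of these cell types in the values of the glycolysis genes was not tested.

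**Figure D5:**
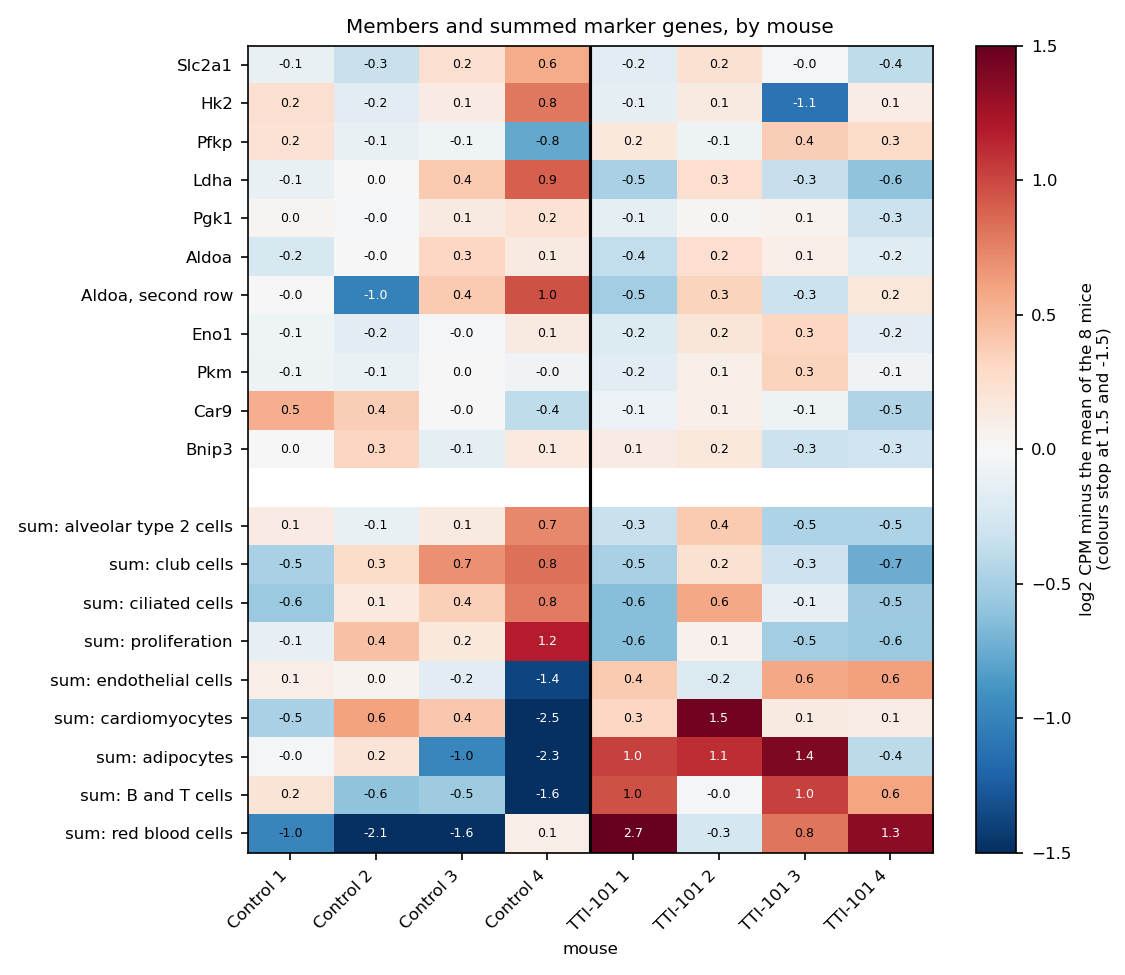
Log2 CPM minus the mean of the 8 mice (number in each cell, colors stopped at 1.5 and -1.5) for the 11 rows above and 9 summed marker lists below; the black line parts control from TTI-101-treated mice. Ldha stands 0.9 above its mean in control mouse 4, the mouse in which the proliferation sum stands 1.2 above.

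Genes whose pattern over the 8 mice was like the mean of the 11 rows were sought among 11008 tested genes with a mean of at least 10 CPM. Those with the smallest differences included Tmbim4, Cdc42se1, Tmbim6 and Tmem230, with root mean square differences in z-score of 0.506 to 0.511 beside a median of 1.06 over all candidates. Their likeness is a description over 8 mice. Near-identical copies, with which reads could be shared, held few counts: copies of Ldha, Pgk1, Aldoa and Pkm held at most 0.796% of the counts of their gene and Eno1b 1.24% to 2.75% of those of Eno1. These counts cannot show reads that match both a gene and its copy and were counted for neither.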

How the data were processed

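Poly(A) RNA from the whole lungs of 8 CC-LR mice, 4 per group, was sequenced with a stranded kit. The deposited values were raw counts per Ensembl gene, made by the authors' provider; their processing notes name STAR, DESeq2 and mm10, without versions, and the strand setting is not given in the sources used here. Coordinates of 11 of 11 rows equal GENCODE M21 (GRCm38).

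The main test was edgeR 4.0.16 under R 4.3.3 (filterByExpr minimum count 10, TMM, robust quasi-likelihood F-tests, Benjamini-Hochberg over 17138 genes). CPM and RPKM were computed from the counts and the gene lengths in the file. Single values were compared by two-sided exact permutation over 70 assignments. No covariate was used. Alternatives were DESeq2 1.42.0, limma-voom (limma 3.58.1), DESeq2 size factors, library totals, other filters, a replicate block and each library left out. On simulated data, edgeR recovered 189 of 200 changed genes with 12 false calls. Its power at the fold changes and the spread between mice seen in the glycolysis and hypoxia response genes was not tested.

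Members and lists were chosen with earlier results of these data known. Named genes were the members, their isozymes, up to 2 higher and 2 lower genes per list by lowest p, and the 5 genes most like the members, of which 1 is not reported here. Settings for named genes outside the members were added after seeing the data. Mice are taken as separate animals, as the study's methods describe; p-values otherwise measure only the spread between samples.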

Additional observations from a re-analysis of the deposited data

Results flagged for a closer look

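Of 42 groups of 4 values checked for a mouse far from the others (Dixon's test at its 95% critical value), 5 had one, where chance gives about 2.1. In the share of Hk2 among hexokinases, control mouse 4 stood at 41.7% (gap over range 0.851) and TTI-101-treated mouse 3 at 13.8% (0.9005). In the share of Pkm, TTI-101-treated mouse 2 stood at 99.0% (0.8322), and in that of Bnip3, control mouse 2 stood at 34.2% (0.8544). In total counts, control mouse 1 was the deepest control, at 26873509 counts (0.8299).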

How the results depend on the processing

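None of the 11 rows passed an adjusted p of 0.05 under any of the 15 alternatives run in edgeR, DESeq2 or limma-voom. The number of rows past an unadjusted p of 0.05 was 1, then 0 with the replicate block, and 0 to 2 with a library left out. Ldha was at -0.59 with the replicate block (unadjusted p = 0.080, edgeR) and between -0.82 and -0.36 with a library left out. It was past that p without control mouse 1, control mouse 2 or treated mouse 2 and not in the other 5 fits. Pfkp was between 0.18 and 0.47 with a library left out and past that p without control mouse 1. The group mean of each tested gene was taken from its log2 CPM, and these deviations were correlated between mice. For same-numbered mice the correlations were 0.393, 0.0822, 0.158 and 0.0707. By these deviations, control mice 1 and 2 were most like the treated mouse of their number, and control mice 3 and 4 most like treated mouse 2. Total counts in control and treated mice were 26873509 and 25920509 for number 1 and 16446481 and 16642630 for number 2. They were 18220467 and 17982612 for number 3 and 16948084 and 16075855 for number 4. The labels state no pairing, so the main fit used none, and a batch shared by number was not tested. The replicate block gave 1298 genes at an unadjusted p of 0.05 in edgeR against 1132. Of all genes, 422 (without treated mouse 3) to 2498 (without treated mouse 2) were past that p, and 1849 with no filter, while DESeq2 had 4 at an adjusted p of 0.05. The share of Slc2a1 differed by -10.9 points from counts not divided by length, and by -12.8 to -6.55 points with a library left out, with an exact permutation p over 0.05 where any treated mouse was left out. The median of the glucose transporters was 0.14 with DESeq2, 0.14 with no filter and 0.17 to 0.29 with a library left out. With a library left out, medians were -0.17 to 0.073 for glycolytic enzymes, -0.13 to -0.046 for the hypoxia-inducible factor machinery, -0.068 to 0.045 for other hypoxia-induced genes, -0.15 to 0.028 for gluconeogenesis and the pentose phosphate pathway and 0.14 to 0.37 for carbonic anhydrases.

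Values near 0 changed sign with a library left out: Aldoa ran from -0.19 to 0.0052, its second row from -0.58 to 0.051, Eno1 from -0.025 to 0.15, Eno1b from -0.28 to 0.23, Pklr from -0.67 to 0.72, Eno2 from -0.34 to 0.24 and Pfkl from -0.15 to 0.13. Eno2 was at 0.082 with limma-voom, 0.013 with library totals and 0.055 with the replicate block, and Pfkl at -0.0059 with limma-voom and -0.0069 with the replicate block. The share of Pkm ran from -0.164 to 0.146 points and that of Bnip3 from -2.78 to 0.674. Adm, Tfrc and Pck1 stayed past an unadjusted p of 0.05 in 15 of 15 alternatives, Slc16a1 in 14 of 15 (not without treated mouse 4) and Car14 in 14 of 15 (not without treated mouse 3). Slc16a7, Arnt2, Egln2, Pdk4, Car3, Hmox1, Slc5a1, Bhlhe40, Pdgfb and Eloc missed it in 3 to 8. Calcoco2, short of it in the main fit, was past it in 4 of 14 and ran from -1.55 to -0.56 with a library left out. Pink1, also short of it in the main fit, was past it with the replicate block (unadjusted p = 0.0231, edgeR). Likewise short in the main fit, Pdp1 was past it in 6 of 15 alternatives and Ldhb, Hkdc1 and Slc2a4 in 4 of 15 each. Pfkm, Eno3 and the glucose transporter Slc2a6 were past it in 2 of 15 each, and Slc2a3 in 1 of 15. The cause of these changes was not tested. Car9, at 27 counts in its lowest library, is limited by depth.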
